A study of Homo sapiens with 30 samples.

Results

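The RNA of 9 genes of the NOTCH pathway was followed in H1299 cells, a human lung carcinoma line without endogenous p53, after transfection with plasmids that express GFP alone or GFP together with different forms of p53. The genes were 4 receptors (NOTCH1, NOTCH2, NOTCH3 and NOTCH4), 3 ligands (JAG1, JAG2 and DLL1) and 2 target genes (HES1 and HEY1). They were chosen by name, with earlier results of these data known. Counts of these genes called, set beside the share over all genes, are therefore descriptions only. The 9 genes are among 39359 in the table of counts, and 9 of 9 passed the filter on low counts that 21335 genes passed. All groups are transiently transfected cells of this 1 line, sorted on the GFP that each plasmid also carries and harvested 6 h or 24 h after transfection, and on each plasmid a tetracycline-responsive promoter drives p53 and a second such promoter drives GFP. The 5 conditions were pGFP (GFP only), pP53WT (wild type p53), pP53RW (p53 with tryptophan in place of an arginine of the DNA-binding domain), pP53O6-meG (wild type p53 sequence with a single O6-methylguanine on the transcribed strand at that codon) and pP53O6-meG in cells given 10 µM O6-benzylguanine (O6-bzG) before transfection. O6-bzG inactivates the repair protein AGT, so that the lesion persists and RNA polymerase can insert uridine opposite it, which yields transcripts for the RW protein. This condition is called p53 TM, for transcriptional mutagenesis. It is the only condition that received O6-bzG in DMSO, so that vector and drug cannot be told apart in its comparisons with pGFP or wild type p53.

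NOTCH receptors are single-pass membrane proteins that are activated by ligands on the neighbouring cell. Binding of a Jagged or Delta-like ligand exposes the receptor to cleavage by an ADAM protease and then by γ-secretase, and the released intracellular domain enters the nucleus, where it joins RBPJ and Mastermind proteins to switch on genes such as HES1 and HEY1, which code for transcriptional repressors. In epithelia the pathway takes part in choices between growth and differentiation, and NOTCH1 is known as a p53 target gene in keratinocytes.

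Each library held between 32302699 and 71950532 counts over genes (median 44424643). Levels are given as CPM (counts scaled to library size, with TMM factors), and as CPM per kb of exon where genes are set beside each other. There were 3 libraries in each group, except for O6-meG and p53 TM at 6 h, which had 2 each (replicates 1 and 3), because the titles of 2 libraries of replicate 2 at 6 h named one of these conditions and, in parentheses, the other. The study's methods describe the replicates as biological, and the labels number them. Differences are edgeR quasi-likelihood log2 fold changes with their SE, and a gene was called at an adjusted P (Benjamini-Hochberg over the 21335 genes) below 0.05. CDKN1A, a classical p53 target, was 241 to 263 CPM at 6 h with wild type p53 and 34.2 to 43.7 CPM with pGFP. The keratin genes KRT8 and KRT18 and the vimentin gene VIM were high (medians 142, 504 and 3045 CPM), KRT19 and EPCAM were near 0 (medians 0.0510 and 0.174 CPM), and endothelial CDH5 and immune PTPRC and CD3E had medians of 0.

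With pGFP, NOTCH2 was the most abundant receptor and the most abundant of the 9 genes per length, at 11.0 ± 0.470 CPM per kb at 6 h (SD, n = 3). JAG2 followed at 3.34 ± 0.270 and JAG1 at 2.25 ± 0.103 CPM per kb, and the libraries of these 3 genes did not overlap. HES1 (1.36 ± 0.279), NOTCH1 (0.843 ± 0.0614), HEY1 (0.479 ± 0.0622), NOTCH3 (0.477 ± 0.00940) and DLL1 (0.352 ± 0.0470) came next in CPM per kb, and of these neighbours HEY1 and NOTCH3 did not differ beyond their spread. NOTCH4, a receptor best known from endothelium, was lowest at 0.0775 ± 0.0116 CPM per kb. With wild type p53 at 24 h the order was different: JAG2 stood at 39.6 ± 5.90, NOTCH2 at 11.1 ± 1.02 and NOTCH3 at 9.78 ± 2.60 CPM per kb, where the libraries of NOTCH2 and NOTCH3 overlapped.

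**Figure D1:**
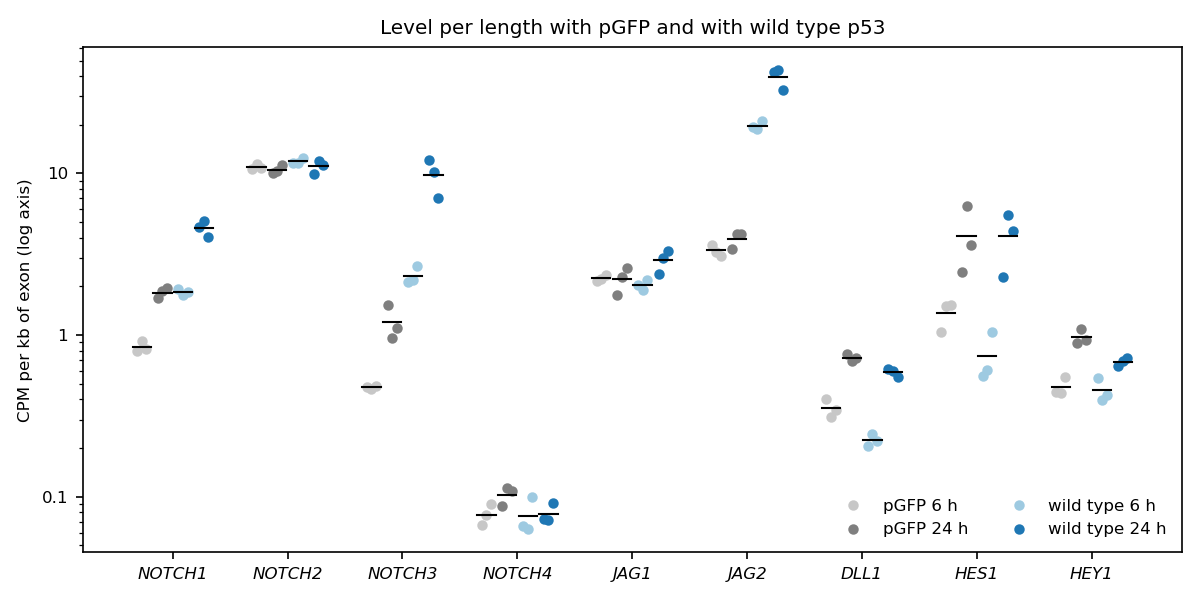
CPM per kb of exon (log axis) of the 9 genes in each library with pGFP and with wild type p53 at 6 h and 24 h; points are libraries and short horizontal lines are means. NOTCH2 lies near 11 in all 4 groups, whereas JAG2 goes from 3.34 with pGFP at 6 h to 39.6 with wild type p53 at 24 h.

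Wild type p53 raised 2 receptors and 1 ligand: NOTCH1, NOTCH3 and JAG2 rose at 6 h and 24 h, while NOTCH2, NOTCH4 and JAG1 were not called at either time. The fit behind these calls held no term for the replicate, and with the replicate as a block JAG1 was called higher at 24 h. At 6 h, 4 of the 9 genes were called (3 up, 1 down), where 10.4% of all genes tested were called (8.67% up and 1.70% down). At 24 h again 4 were called (3 up, 1 down), where 36.8% of all genes were (17.3% up and 19.5% down). The libraries with wild type p53 all lay above the pGFP libraries for 4 of the 9 genes at 6 h (19.0% of all genes) and 3 at 24 h (19.8%), and all below for 1 (12.9%) and 2 (25.0%). Over the 9 genes the median log2 fold change was -0.00 and 0.07 at the 2 times, beside 0.01 and -0.08 over all genes tested. A rise can reflect more cells with the transcript or more transcript per cell, which bulk RNA cannot tell apart.

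NOTCH1 (chr9:136494433-136546048, minus strand, hg38) was 9.96, 11.4 and 10.3 CPM with pGFP at 6 h and 24.0, 22.2 and 23.0 CPM with wild type p53. With pGFP at 24 h it was 21.1, 23.5 and 24.3 CPM, against 58.1, 63.5 and 50.5 CPM with wild type p53. All libraries with wild type p53 lay above all pGFP libraries of the same time, and the level with wild type p53 at 6 h was close to the pGFP level at 24 h. The log2 fold change was 1.13 (SE 0.11, adjusted P = 3.99e-08) at 6 h and 1.32 (SE 0.11, adjusted P = 6.11e-10) at 24 h.

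NOTCH3 (chr19:15159038-15200995, minus strand), a receptor known from smooth muscle of vessels, was 4.51, 4.39 and 4.56 CPM with pGFP at 6 h and 20.1, 20.6 and 25.1 CPM with wild type p53. The pGFP libraries of 24 h held 14.4, 8.99 and 10.4 CPM, and those with wild type p53 114.5, 95.6 and 65.9 CPM. The groups did not overlap at either time, and replicate 1 was the highest of its group at 24 h in both. The log2 fold change was 2.29 (SE 0.32, adjusted P = 1.00e-05) at 6 h and 3.03 (SE 0.32, adjusted P = 2.60e-08) at 24 h. The summed level of the 5 pericyte or fibroblast markers moved in the same direction, from 12.0 to 12.9 CPM with pGFP to 67.7 to 104.6 CPM with wild type p53 and 78.1 to 110.2 CPM in p53 TM cells at 24 h. This came from the smooth muscle actin gene ACTA2 (2.37 to 101.8 CPM over the 30 libraries), while PDGFRB, COL1A1 and DCN stayed at or under 2.03 CPM and RGS5 at or under 6.90 CPM. All libraries come from this 1 carcinoma line, and any link between ACTA2 and NOTCH3 was not tested.

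JAG2 (chr14:105140982-105168824, minus strand), a Jagged ligand, had the largest difference of the 9 genes. It was 23.2, 20.9 and 19.9 CPM with pGFP at 6 h and 123.7, 120.4 and 134.1 CPM with wild type p53, a 5.91-fold difference. By 24 h it was 21.9, 27.2 and 26.8 CPM with pGFP and 270.9, 279.5 and 210.2 CPM with wild type p53, a 10.0-fold difference. The 3 libraries with wild type p53 were far above the pGFP libraries at both times. The log2 fold change was 2.56 (SE 0.19, adjusted P = 2.44e-10) at 6 h and 3.32 (SE 0.20, adjusted P = 1.67e-12) at 24 h. A lncRNA on the same strand overlaps 7.33% of the exon bases of JAG2 in GENCODE v44. Of the exon bases of NOTCH1 and NOTCH3, 0% were shared with exons of another gene.

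The change from 6 h to 24 h in the effect of wild type p53 was tested directly. It was 0.19 (SE 0.16) for NOTCH1, 0.74 (SE 0.44) for NOTCH3 and 0.76 (SE 0.26) for JAG2 on the log2 scale, and 0 of the 9 genes were called by edgeR (adjusted P = 0.579, 0.384 and 0.0802 for these 3), with 2 at an unadjusted P below 0.05 and 2 called by DESeq2 (JAG1 and JAG2). Over all genes, 6.71% were called by edgeR. That fit held no term for the replicate. With the replicate as a block, NOTCH3 (0.73, adjusted P = 0.0216), JAG1 (0.54, 9.30e-05) and JAG2 (0.73, 0.0122) were called.

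**Figure D2:**
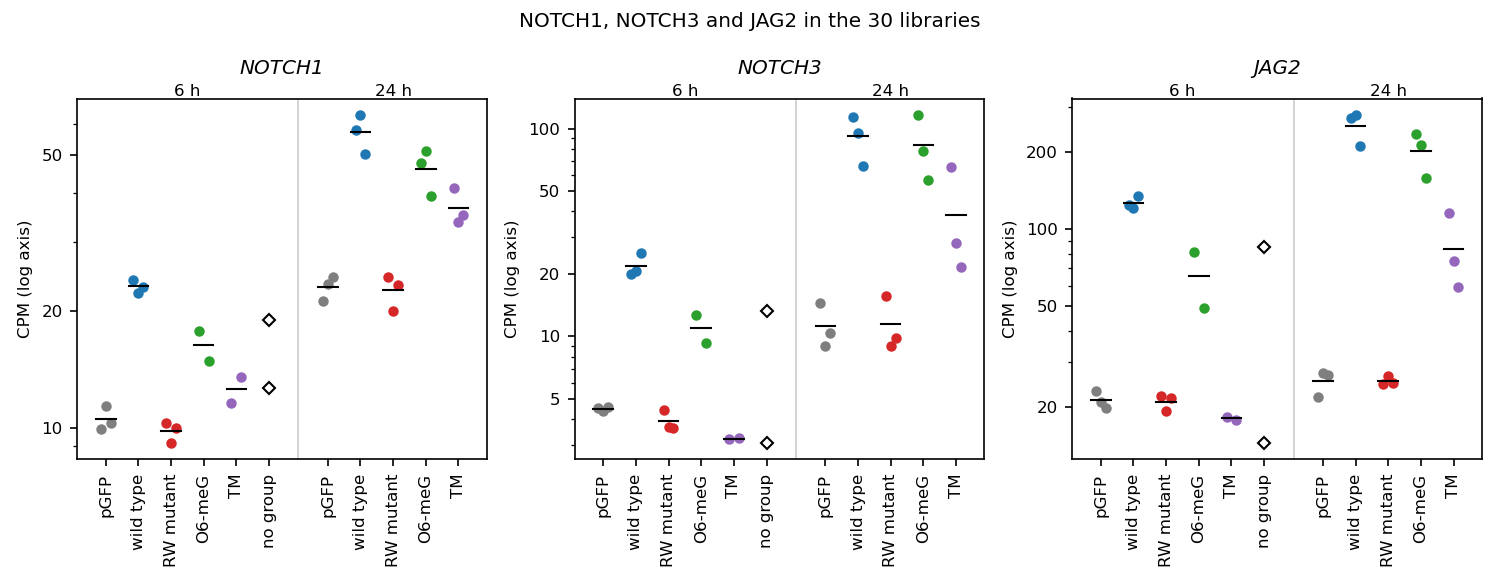
CPM (log axis) of NOTCH1, NOTCH3 and JAG2 in each of the 30 libraries by condition and time; points are libraries, short lines are group means and open diamonds are the 2 libraries without a group. At 24 h the wild type p53, O6-meG and p53 TM libraries all lie above the pGFP libraries for the 3 genes, while the RW mutant and pGFP libraries overlap.

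The bases before the start of the 3 genes that rose are shown here, with those of HES1 beside them, because they are the regions next to the genes that wild type p53 raised and to a classical NOTCH target that it did not raise. They are taken from RefSeq (GRCh38.p14), in which 7 of the 9 genes matched an entry (not DLL1 and HEY1). Each stretch of 200 bases runs 5′ to 3′ on the gene's own strand from 250 to 51 bases before the start, at chr9:136546099-136546298 (NOTCH1, minus strand), chr19:15201046-15201245 (NOTCH3, minus strand), chr14:105168827-105169026 (JAG2, minus strand) and chr3:194135898-194136097 (HES1, plus strand). Capitals mark the core of the RBPJ binding motif, TGGGAA, searched on both strands.
NOTCH1: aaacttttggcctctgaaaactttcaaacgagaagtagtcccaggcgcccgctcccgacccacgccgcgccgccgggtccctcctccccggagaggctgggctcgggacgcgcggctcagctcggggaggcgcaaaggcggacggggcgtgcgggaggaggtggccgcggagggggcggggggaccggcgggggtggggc
NOTCH3: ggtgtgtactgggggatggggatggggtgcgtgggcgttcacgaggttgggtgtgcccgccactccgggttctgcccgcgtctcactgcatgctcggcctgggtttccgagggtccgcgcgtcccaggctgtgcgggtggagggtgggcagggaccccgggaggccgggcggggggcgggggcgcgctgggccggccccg
JAG2: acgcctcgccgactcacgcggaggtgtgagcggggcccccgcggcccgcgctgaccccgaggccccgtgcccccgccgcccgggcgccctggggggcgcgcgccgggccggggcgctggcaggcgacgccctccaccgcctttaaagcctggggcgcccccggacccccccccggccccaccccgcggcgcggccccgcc
HES1: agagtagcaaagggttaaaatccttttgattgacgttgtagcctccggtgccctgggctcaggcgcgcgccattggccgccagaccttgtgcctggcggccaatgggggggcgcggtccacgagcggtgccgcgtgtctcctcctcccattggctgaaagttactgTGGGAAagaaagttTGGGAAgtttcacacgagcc
HES1 held the core 2 times within the 300 bases searched (250 before and 50 after the start), and the other 6 promoters (NOTCH1, NOTCH2, NOTCH3, NOTCH4, JAG1 and JAG2) held it 0 times. Of 35116 RefSeq promoters of that length, 24.0% held it at least 1 time, and 1333 of the 35116 at least 2 times. The stretches of NOTCH1, NOTCH3 and JAG2 shown were 74.0%, 76.0% and 86.0% G and C, and that of HES1 59.5%. A match to these letters is a description of the sequence only.

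The other receptors were steadier. NOTCH2 (chr1:119911553-120100779, minus strand) was 178 to 193 CPM with pGFP and 194 to 208 CPM with wild type p53 at 6 h, with no overlap but a log2 difference of only 0.11 (SE 0.07, adjusted P = 0.469). At 24 h its groups overlapped, and the log2 difference was 0.07 (SE 0.07, adjusted P = 0.499). NOTCH2 shares sequence with the NOTCH2NL copies, so that reads may be split between them. NOTCH4 (chr6:32194843-32224067, minus strand) had only 16 to 69 counts per library, and its log2 difference was -0.00 (SE 0.30) at 6 h and -0.40 (SE 0.30) at 24 h. No difference of NOTCH4 was detectable at this depth.

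JAG1 (chr20:10637684-10673999, minus strand), the other Jagged ligand, lay at 20.1 to 22.0 CPM with pGFP and 17.7 to 20.3 CPM with wild type p53 at 6 h (log2 difference -0.14, SE 0.16, adjusted P = 0.774). By 24 h JAG1 was 16.5, 21.4 and 24.1 CPM with pGFP and 22.3, 27.9 and 30.9 CPM with wild type p53. The groups overlapped, but in each replicate the wild type p53 library was the higher one. The log2 difference at 24 h was 0.39 (SE 0.16, adjusted P = 0.0581), a 1.31-fold difference that was not called. With the replicate as a block it was 0.39 with adjusted P = 7.42e-06, and the DESeq2 test (0.0102) and the fits without wild type p53 replicate 1 (0.0232) or pGFP replicate 3 (0.0279) called it as well.

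DLL1 (chr6:170282206-170306565, minus strand), a Delta-like ligand, went the other way from JAG2. It was 1.54, 1.18 and 1.31 CPM with pGFP at 6 h and 0.785, 0.928 and 0.841 CPM with wild type p53, and it fell by 0.66 on the log2 scale (SE 0.18, adjusted P = 0.0128). The call was lost without pGFP replicate 1 (adjusted P = 0.0911) or without wild type p53 replicate 1 (0.0586) or 3 (0.0549), and adjusted P ranged from 0.00631 to 0.0911 over the alternatives. DLL1 at 24 h was 2.90, 2.64 and 2.75 CPM with pGFP and 2.35, 2.30 and 2.10 CPM with wild type p53, which did not overlap, but the log2 difference of -0.30 (SE 0.16, adjusted P = 0.152) was not called. Of the exon bases of DLL1, 9.69% overlap FAM120B on the other strand, and whether counting used strand is not given in the sources used here.

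The 2 target genes did not rise with the receptors. HES1 (chr3:194136148-194138732, plus strand) was 2.15, 3.09 and 3.18 CPM with pGFP and 1.15, 1.24 and 2.16 CPM with wild type p53 at 6 h, with overlap and a log2 difference of -0.85 (SE 0.51, adjusted P = 0.416; with only these 2 groups in the fit 0.0134). With the replicate as a block HES1 was also called lower at 6 h (adjusted P = 0.0177). HES1 at 24 h was 5.03, 12.9 and 7.47 CPM with pGFP and 4.73, 11.4 and 9.10 CPM with wild type p53, a log2 difference of -0.01 (SE 0.44, adjusted P = 0.986). The spread of HES1 at 24 h followed the replicate number: replicate 1 was lowest and replicate 2 highest in the 5 conditions. HEY1 (chr8:79762371-79767857, minus strand) was 2.45, 2.41 and 3.02 CPM with pGFP and 2.98, 2.17 and 2.33 CPM with wild type p53 at 6 h (adjusted P = 0.915). HEY1 at 24 h was 4.90, 5.95 and 5.12 CPM with pGFP and 3.51, 3.81 and 3.96 CPM with wild type p53, and it fell by 0.50 on the log2 scale (SE 0.17, adjusted P = 0.0194). That call was lost without wild type p53 replicate 1 (adjusted P = 0.0718) or pGFP replicate 2 (0.0955), and adjusted P ranged from 0.000928 to 0.0955 over the alternatives.

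**Figure D3:**
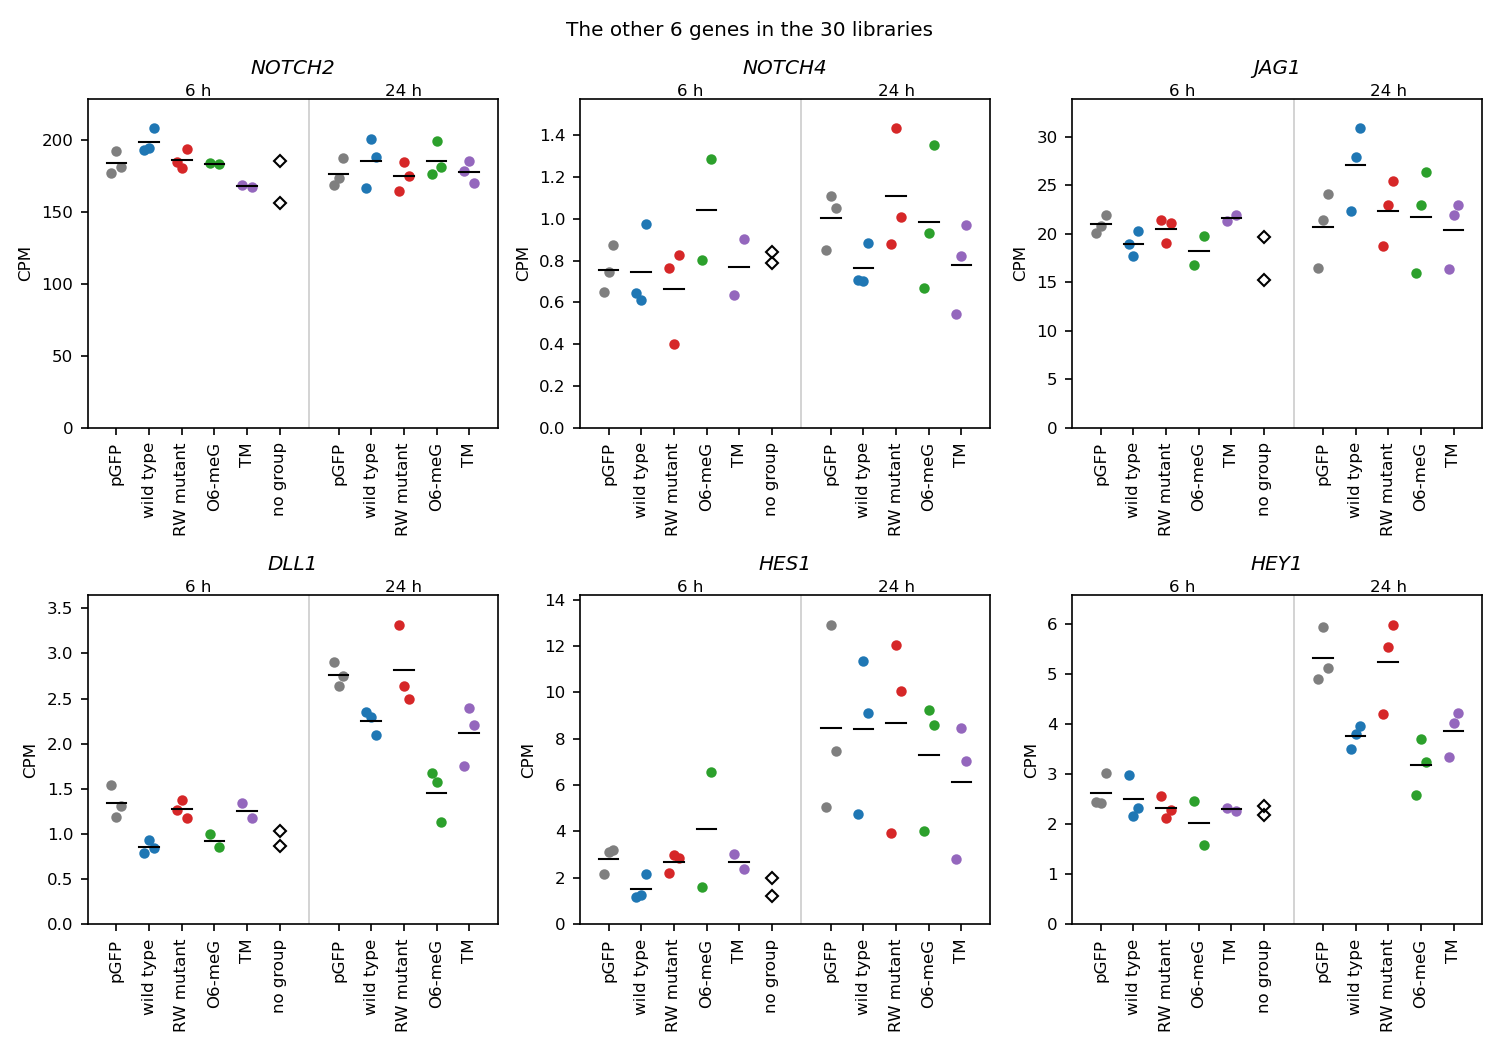
CPM of NOTCH2, NOTCH4, JAG1, DLL1, HES1 and HEY1 in each of the 30 libraries by condition and time, on axes that start at 0; points are libraries, short lines are group means and open diamonds are the 2 libraries without a group. DLL1, HES1 and HEY1 are higher at 24 h than at 6 h with pGFP, and HEY1 at 24 h is lower with wild type p53 (3.51 to 3.96 CPM) than with pGFP (4.90 to 5.95 CPM).

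With the RW mutant, the libraries of each of the 9 genes overlapped those with pGFP at both times. With edgeR, 0 of the 9 genes were called at 6 h and 0 at 24 h, where 0.00469% of all genes (1 gene) was called at each time. At an unadjusted P below 0.05 there were also 0 at both times, and DESeq2 called 0. Genes whose RW libraries lay all above or all below the pGFP libraries made up 3.81% and 3.86% of all genes at 6 h and 2.28% and 1.93% at 24 h, and 0 of the 9 genes were among them. JAG2 was 22.2, 19.3 and 21.7 CPM with the RW mutant at 6 h and 24.8, 26.5 and 25.0 CPM at 24 h, and its log2 difference was -0.02 (SE 0.19) and 0.01 (SE 0.19). For NOTCH1 the difference was -0.10 (SE 0.12) and -0.03 (SE 0.11), and for NOTCH3 -0.21 (SE 0.35) and 0.03 (SE 0.31) at 6 h and 24 h.

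With pGFP alone, 5 of the 9 genes were higher at 24 h than at 6 h and 0 lower, where 39.6% of all genes were called (20.7% up and 18.9% down). These were NOTCH1 (log2 1.12, SE 0.11), NOTCH3 (1.32, SE 0.33), DLL1 (1.04, SE 0.16), HES1 (1.59, SE 0.47) and HEY1 (1.01, SE 0.17). The median of the 9 genes was 1.01 and that of all genes tested 0.04. HES1 was not called without pGFP 24 h replicate 2 (log2 1.16, adjusted P = 0.0722, with adjusted P from 1.59e-06 to 0.0722 over the alternatives). JAG2 was 19.9 to 23.2 CPM at 6 h and 21.9 to 27.2 CPM at 24 h (log2 0.25, SE 0.19, adjusted P = 0.312). NOTCH1, NOTCH3, DLL1, HES1 and HEY1 thus rose with time in cells without p53, and time since transfection cannot be told apart from time in culture.

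The O6-meG vector, in cells whose AGT was active, also raised NOTCH1, NOTCH3 and JAG2 over pGFP. At 6 h 3 of the 9 genes were called (3 up, 0 down), where 4.66% of all genes were (4.08% up and 0.586% down). At 24 h 5 were called (3 up, 2 down), where 30.2% of all genes were (15% up and 15.2% down). The libraries lay all above those with pGFP for 3 of the 9 genes at 6 h (23.4% of all genes) and 3 at 24 h (17.6%), and all below for 2 at 6 h (16.2%) and 2 at 24 h (20.9%). NOTCH1 was 17.8 and 14.8 CPM at 6 h and 47.8, 51.2 and 39.4 CPM at 24 h. NOTCH3 was 12.7 and 9.34 CPM at 6 h and 116.7, 78.1 and 56.4 CPM at 24 h. JAG2 was 81.3 and 49.1 CPM at 6 h and 234.8, 213.5 and 158.1 CPM at 24 h. For all 3, replicate 1 at 6 h was the higher of the 2 libraries and replicate 3 at 24 h was the lowest of 3. The log2 fold changes against pGFP at 6 h were 0.63 (SE 0.13, adjusted P = 0.00189) for NOTCH1, 1.30 (SE 0.36, adjusted P = 0.0310) for NOTCH3 and 1.61 (SE 0.20, adjusted P = 3.52e-06) for JAG2. At 24 h they were 1.01 (SE 0.11), 2.90 (SE 0.32) and 3.00 (SE 0.20), each with adjusted P at or below 7.39e-08.

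At 6 h these calls rest on few libraries. NOTCH3 was not called without any 1 of the 5 libraries compared (pGFP replicates 1, 2 and 3, adjusted P = 0.0851, 0.0955 and 0.0946; O6-meG replicates 1 and 3, 0.244 and 0.0574), and NOTCH1 not without O6-meG replicate 1 (0.0880). With the 2 libraries of conflicting titles placed by their parentheses, 0 of the 9 genes were called, and adjusted P over the alternatives reached 0.503 for NOTCH3, 0.103 for NOTCH1 and 0.278 for JAG2. With the words outside the parentheses used, 4 of the 9 genes were called, and NOTCH1 (0.70, adjusted P = 6.49e-05), NOTCH3 (1.39, 0.00425) and JAG2 (1.75, 1.35e-07) were higher than with pGFP. DLL1 and HEY1 fell at 24 h. DLL1 was 1.67, 1.57 and 1.13 CPM with O6-meG against 2.64 to 2.90 CPM with pGFP, and fell by 0.92 on the log2 scale (SE 0.17, adjusted P = 9.97e-05). HEY1 was 2.59, 3.69 and 3.24 CPM against 4.90 to 5.95 CPM, and fell by 0.74 (SE 0.17, adjusted P = 0.00135). Both held under the 14 alternatives run.

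Against wild type p53 itself, the O6-meG vector gave 0 calls by edgeR among the 9 genes at 6 h and at 24 h, where 0% of all genes were called. Unadjusted P was below 0.05 for 4 of the 9 genes (2013 of all) at 6 h and 2 (1042 of all) at 24 h, and DESeq2 called 1 of the 9, JAG2 (35 of all) at 6 h and 0 (8 of all) at 24 h. At 6 h the log2 differences were -0.50 (SE 0.13) for NOTCH1, -0.99 (SE 0.35) for NOTCH3 and -0.95 (SE 0.21) for JAG2, and both O6-meG libraries lay below the 3 wild type p53 libraries for 4 of the 9 genes, these 3 and NOTCH2 (18.6% of all genes), and above for 0 (16.5%). At 24 h they were -0.31 (SE 0.11), -0.14 (SE 0.29) and -0.33 (SE 0.18), with overlapping libraries. The difference of JAG1 at 24 h was -0.31 (SE 0.16, adjusted P = 1.00), and with the replicate as a block -0.33 with adjusted P = 0.0152. DLL1 at 24 h lay below all wild type p53 libraries, with a difference of -0.62 (SE 0.17, adjusted P = 0.489).

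In p53 TM cells at 6 h, 0 of the 9 genes were called against pGFP by edgeR, where 0.211% of all genes were, with 0 at an unadjusted P below 0.05 and 0 called by DESeq2. NOTCH1 was 11.6 and 13.6 CPM, beside 9.96 to 11.4 CPM with pGFP, with a log2 difference of 0.25 (SE 0.13, adjusted P = 0.873). NOTCH3 was 3.20 and 3.23 CPM and JAG2 18.3 and 17.9 CPM, beside 4.39 to 4.56 and 19.9 to 23.2 CPM with pGFP. Their log2 differences were -0.48 (SE 0.39) and -0.24 (SE 0.21). Against wild type p53 the same libraries were lower for these 3 genes, and 3 of the 9 genes were called (0 up, 3 down), where 10.9% of all genes were (2.89% up and 8.02% down). NOTCH1 fell by 0.87 on the log2 scale (SE 0.13, adjusted P = 2.21e-05), NOTCH3 by 2.77 (SE 0.39, adjusted P = 1.50e-05) and JAG2 by 2.80 (SE 0.23, adjusted P = 3.72e-09). With the conflicting titles read by their parentheses, the differences were -0.65 (adjusted P = 0.0469), -1.76 (0.0723) and -1.65 (0.0730), the highest adjusted P among the alternatives for each. Read by their first part, they were -0.87 (1.17e-06), -2.79 (2.92e-07) and -2.90 (1.88e-11). NOTCH2 was 169 and 168 CPM, below all wild type p53 libraries, with a difference of -0.24 (SE 0.08, adjusted P = 0.0536; 0.0202 by DESeq2). The libraries lay all below those with wild type p53 for these 4 genes (23.0% of all genes) and all above for JAG1, DLL1 and HES1 (18% of all genes), which were not called. With the replicate as a block, DLL1 (adjusted P = 0.0470) and HES1 (0.0417) were called higher.

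By 24 h NOTCH1, NOTCH3 and JAG2 lay between pGFP and wild type p53 in p53 TM cells. NOTCH1 was 41.2, 33.8 and 35.1 CPM, NOTCH3 65.3, 28.3 and 21.7 CPM and JAG2 115.8, 75.1 and 59.4 CPM. All 3 libraries lay above the pGFP libraries and below the wild type p53 libraries for each gene, and replicate 1 was the highest each time. Of all genes, 13.3% lay all above and 9.73% all below the pGFP libraries, and 15.9% and 12.9% all above and all below the wild type p53 libraries. Against pGFP 3 of the 9 genes were called (3 up, 0 down), where 9.63% of all genes were (7.54% up and 2.09% down). NOTCH1 rose by 0.67 (SE 0.11, adjusted P = 9.44e-05), NOTCH3 by 1.77 (SE 0.31, adjusted P = 0.000217) and JAG2 by 1.72 (SE 0.19, adjusted P = 2.56e-07) on the log2 scale. Against wild type p53 3 were called (0 up, 3 down), where 21.4% of all genes were (11.1% up and 10.3% down). NOTCH1 fell by 0.64 (SE 0.11, adjusted P = 0.000133), NOTCH3 by 1.26 (SE 0.29, adjusted P = 0.00281) and JAG2 by 1.60 (SE 0.18, adjusted P = 1.56e-06). With only the 2 groups compared in the fit, NOTCH3 was not called against wild type p53 (adjusted P = 0.0595, the highest of its alternatives). JAG1 was 16.3, 21.9 and 23.0 CPM, with a difference from wild type p53 of -0.40 (SE 0.16, adjusted P = 0.0717) and, with the replicate as a block, of -0.41 with adjusted P = 1.01e-05. HEY1 was 3.35, 4.02 and 4.22 CPM, below all pGFP libraries, with a difference of -0.46 (SE 0.17, adjusted P = 0.0877; with the replicate as a block adjusted P = 0.00511).

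Placed on a scale where the mean with pGFP is 0% and the mean with wild type p53 is 100%, CPM in p53 TM cells at 24 h stood at 39.9 ± 11.6% for NOTCH1, 33.6 ± 29.1% for NOTCH3 and 25.5 ± 12.8% for JAG2 (SD, n = 3). With O6-meG and active AGT the values at 24 h were 67.4 ± 17.7%, 89.7 ± 37.8% and 77.5 ± 17.3%. Same-numbered libraries deviated together at 24 h, so that both ends of the scale were also taken from the libraries of the same replicate, a choice made after seeing the data. Within replicates p53 TM cells stood at 40.5 ± 14.4% for NOTCH1, 31.1 ± 17.1% for NOTCH3 (50.8%, 22.2% and 20.3% in replicates 1, 2 and 3) and 24.8 ± 11.2% for JAG2. The O6-meG libraries stood at 66.4 ± 7.76%, 88.3 ± 12.1% (102.1%, 79.8% and 82.9%) and 76.97 ± 7.46%. The means were close to those on the scale of group means, and the SD was smaller in each case except NOTCH1 in p53 TM cells. At 6 h the 2 p53 TM libraries stood at 8.27% and 23.9% for NOTCH1, -7.37% and -7.22% for NOTCH3 and -2.89% and -3.29% for JAG2. The 2 O6-meG libraries stood at 57.8% and 34.2%, 47.1% and 27.8%, and 57.3% and 26.5%. The RW mutant at 24 h stood at -1.26 ± 6.78% for NOTCH1, 0.245 ± 4.46% for NOTCH3 and 0.0539 ± 0.416% for JAG2. Since the same pGFP and wild type p53 libraries set both ends of the scale, the values of the conditions share their error.

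The 2 conditions with the O6-meG vector differ by O6-bzG, which was given in DMSO. Whether the other cells also received DMSO is not stated in the sources used here. At 6 h, 2 of the 9 genes were called (0 up, 2 down with O6-bzG), where 4.11% of all genes were (0.858% up and 3.25% down). The log2 difference was -1.78 for NOTCH3 (SE 0.42, adjusted P = 0.00981) and -1.85 for JAG2 (SE 0.23, adjusted P = 6.56e-06). At 24 h 3 were called (1 up, 2 down), where 10.0% of all genes were (4.33% up and 5.71% down). The difference was -1.13 for NOTCH3 (SE 0.29, adjusted P = 0.0139), -1.28 for JAG2 (SE 0.18, adjusted P = 0.000113) and 0.54 for DLL1 (SE 0.17, adjusted P = 0.0394), and the NOTCH3 libraries of the 2 conditions overlapped. NOTCH1 differed by -0.33 (SE 0.11, adjusted P = 0.0524; with the replicate as a block adjusted P = 0.0129). The NOTCH3 call at 6 h was lost without O6-meG replicate 1 (adjusted P = 0.0901) or p53 TM replicate 1 (0.0892) or 3 (0.117). At 24 h it was lost without O6-meG replicate 1 (0.104) or p53 TM replicate 2 (0.0933) or 3 (0.106), and the DLL1 call was lost under 9 of 14 alternatives, among them the DESeq2 test (0.0735) and without O6-meG replicate 2 (0.0638) or 3 (0.178) or p53 TM replicate 2 (0.174) or 3 (0.130). The parentheses of the conflicting titles gave 0 calls at both times, with adjusted P up to 1 at 6 h and, at 24 h, 0.115 for NOTCH3 and 0.0722 for JAG2. By the first part of the titles 3 genes were called at 6 h and 4 at 24 h, with differences of -1.89 for NOTCH3 (adjusted P = 0.000210) and -2.08 for JAG2 (9.81e-09) at 6 h and adjusted P = 0.00912 for NOTCH3 and 7.83e-05 for JAG2 at 24 h.

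From 6 h to 24 h the distance between p53 TM and wild type p53 became smaller for JAG2. Its change was 1.20 on the log2 scale (SE 0.28, adjusted P = 0.0197), 1 call (1 up, 0 down) among the 9 genes, where 1.69% of all genes were called (1.53% up and 0.159% down). For NOTCH3 it was 1.51 (SE 0.48, adjusted P = 0.130) and for NOTCH1 0.23 (SE 0.17, adjusted P = 0.724). The JAG2 call was lost without p53 TM 24 h replicate 1 (adjusted P = 0.0598), wild type p53 24 h replicate 3 (0.0585), wild type p53 6 h replicate 3 (0.0516) or either p53 TM library of 6 h (0.111 and 0.112), and its adjusted P ranged from 0.000703 to 0.995 over the alternatives.

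**Figure D4:**
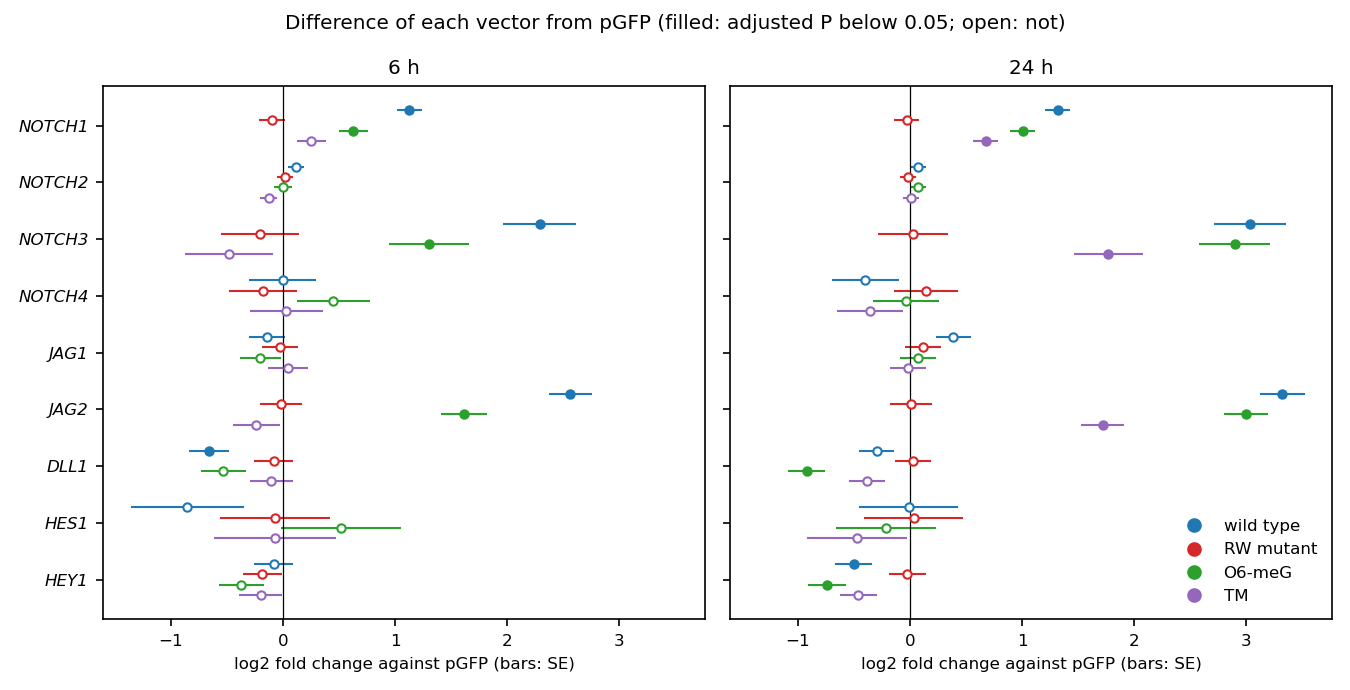
Log2 fold change against pGFP (x axis) of the 9 genes (y axis) for the 4 p53 conditions at 6 h and 24 h; points are edgeR estimates, bars are ± 1 SE and filled points have adjusted P below 0.05. NOTCH1, NOTCH3 and JAG2 are the genes with filled points to the right, for wild type p53 and O6-meG at both times and for p53 TM at 24 h.

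Across the 28 libraries with a group, NOTCH3 followed NOTCH1 (Pearson r of log2 CPM 0.957) and JAG2 (0.930), and DLL1 followed HEY1 (0.850), while HES1 was least like JAG2 (0.131) among the pairs of HES1 with NOTCH1, NOTCH3 and JAG2. These r are descriptions, since the libraries share vector and time. By the same measure the genes most like NOTCH1 were TMCC2, VASN and JUP (r = 0.987, 0.985 and 0.985), those most like NOTCH3 were ARHGAP27, ABCA7 and ARID5B (0.993, 0.988 and 0.988), and those most like JAG2 were GRIN3B, KCNJ12 and PTPN3 (0.993, 0.991 and 0.990). DLL1 was most like OPN3, HLA-F and CDYL2 (0.935, 0.930 and 0.921) and HEY1 most like CDKN2C, USP2 and EN1 (0.932, 0.928 and 0.920).

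Of 50 other genes of the NOTCH pathway, 49 passed the filter on low counts (not HES5). With wild type p53, 7 rose and 0 fell at 6 h, where 8.67% of all genes rose and 1.70% fell, and 13 rose and 11 fell at 24 h (17.3% and 19.5% of all genes). The 11 include DTX1, which passed the filter through the pGFP libraries of 24 h, where it was highest. The 13 include DLK1, which passed it through 24 h libraries with wild type p53 or the O6-meG vector, where it was highest. DLK1 is also among the genes lower in p53 TM cells than with wild type p53 at 24 h. The list had a median log2 fold change of 0.03 and 0.02 at these times, beside 0.01 and -0.08 over all genes tested. In p53 TM cells 1 was higher and 5 lower than with wild type p53 at 6 h (2.89% and 8.02% of all genes), and 5 were higher and 11 lower at 24 h (11.1% and 10.3% of all genes). With the replicate as a block, 14 were higher and 12 lower at 24 h. With the RW mutant 0 of the 49 were called by edgeR at either time, 0 at an unadjusted P below 0.05 and 0 by DESeq2. PSENEN, RBPJ, NUMBL, DTX3, HEY2, HES4, HES7, POFUT1 and POGLUT1 are named after their values were seen, and the other genes of the list by rule.

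The Fringe glycosyltransferases, which add sugars to the receptors and so alter their response to Jagged and Delta-like ligands, rose together. MFNG was 0.869 ± 0.168 CPM with pGFP and 3.32 ± 0.874 CPM with wild type p53 at 24 h (log2 1.94, SE 0.29), RFNG rose by 1.32 (SE 0.13) and LFNG by 1.17 (SE 0.16), and all 3 were also called at 6 h (1.75, 0.62 and 0.76). All 3 were lower in p53 TM cells than with wild type p53 at 24 h (log2 -1.33, -0.57 and -0.62 for MFNG, RFNG and LFNG), and MFNG (-2.63) and RFNG (-0.57) also at 6 h. The other 2 genes of the group, POFUT1 and POGLUT1, which add the first sugars, were not called. Of the exon bases of RFNG, 21.6% overlap a gene on the other strand.

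Of the 4 other ligands, DLK1, a non-canonical ligand, rose at 24 h from 0.107, 0.0708 and 0.191 CPM to 1.37, 1.68 and 0.978 CPM (log2 3.42, SE 0.40), and DLL4, a ligand of endothelial sprouting, fell by 1.71 (SE 0.30, adjusted P = 4.36e-05) to 0.282 ± 0.0702 CPM. DLK1 had 3 to 8 counts with pGFP and 42 to 79 with wild type p53 at 24 h. It passed the filter on low counts through 24 h libraries with wild type p53 or the O6-meG vector, where it was highest. Its rise, and its lower level in p53 TM cells given next, are therefore not independent of the filter and carry no weight. Against wild type p53, p53 TM cells at 24 h had less DLK1 (log2 -2.14, SE 0.34) and more DLL4 (1.37, SE 0.30), and DLL4 was also higher at 6 h (1.53, SE 0.29). Of 4 E3 ligases that act on ligands, MIB2 rose by 1.31 (SE 0.17) at 6 h and 1.495 (SE 0.17) at 24 h, and NEURL1B fell by 0.78 (SE 0.19) at 24 h. In p53 TM cells MIB2 was lower than with wild type p53 at 6 h (log2 -1.48, SE 0.19), while at 24 h the difference was -0.31 (SE 0.16, adjusted P = 0.194).

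Among 9 genes of receptor cleavage, PSEN2, a catalytic subunit of γ-secretase, rose by 1.17 at 24 h (SE 0.11), and its partner subunits APH1B (log2 -0.80), PSENEN (-0.33) and NCSTN (-0.28) fell. Against wild type p53, PSEN2 was lower in p53 TM cells at 6 h (-0.68) and 24 h (-0.82), and APH1B (0.70) and NCSTN (0.27) were higher at 24 h. At 6 h the protease gene FURIN alone was called in this group (0.26, SE 0.08, adjusted P = 0.0412). Other genes on the same strand overlap 38.7% of the exon bases of PSEN2. Of the exon bases of PSENEN, 31.3% are overlapped on the other strand and 20.97% on the same strand.

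Of the 5 genes of the nuclear complex, RBPJ, the DNA-binding protein of the pathway, was 88.7 ± 4.62 CPM with pGFP and 80.7 ± 4.97 CPM with wild type p53 at 24 h (adjusted P = 0.221), and MAML2, a coactivator, fell by 0.40 (SE 0.14, adjusted P = 0.0252). Of 9 genes of receptor turnover and inhibition, FBXW7, part of the ubiquitin ligase that degrades the intracellular domain, rose by 0.81 (SE 0.11) and DTX2 by 0.55 (SE 0.10), and NUMB, an inhibitor of NOTCH, fell by 0.53 (SE 0.08), as did NUMBL (-0.38), DTX3 (-0.30) and DTX1. DTX1 had 7 to 10 counts with pGFP and 0 to 3 with wild type p53 at 24 h. It passed the filter on low counts through the pGFP libraries of 24 h, its highest group. Its fall is therefore not independent of the filter and carries no weight. In p53 TM cells at 24 h NUMB (0.38) and ITCH (0.21), a ligase that acts on NOTCH, were higher than with wild type p53 and DTX2 was lower (-0.35). Of the exon bases of ITCH, 23.95% are overlapped on the same strand.

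Of 7 other HES, HEY and target genes tested, 2 rose at 6 h (8.67% of all genes), and 4 rose and 1 fell at 24 h (17.3% and 19.5% of all genes). HES2, a relative of HES1, was 0.202, 0.0878 and 0.192 CPM with pGFP at 6 h and 15.1, 15.9 and 19.3 CPM with wild type p53 (log2 6.65, SE 0.44, adjusted P = 2.21e-11), from 4 to 11 counts to 654 to 1305. At 24 h it was 0.932, 0.425 and 0.574 CPM with pGFP, 56.0, 53.3 and 33.4 CPM with wild type p53 and 17.8, 9.59 and 6.68 CPM in p53 TM cells. HES2 in p53 TM cells lay between the other groups at 24 h (log2 -2.07 against wild type p53, SE 0.28), and at 6 h it was 0.0908 and 0.307 CPM, beside 0.0878 to 0.202 CPM with pGFP. HEYL rose by 0.70 (SE 0.22) at 6 h and 1.46 (SE 0.21) at 24 h, NRARP, a feedback inhibitor that NOTCH induces in many tissues, by 0.79 (SE 0.21) at 24 h, and HES6 by 0.54 (SE 0.12), and these 3 were lower in p53 TM cells at 24 h (-0.99 for HEYL and -0.38 for HES6 against wild type p53). HEY2 fell by 0.76 (SE 0.17) at 24 h, in the same direction as HEY1. With HES1 and HEY1 included, genes of this group thus moved in both directions, with HES2, HEYL, NRARP and HES6 up, HEY1 and HEY2 down, and HES1, HES4 and HES7 not called, at 24 h.

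**Figure D5:**
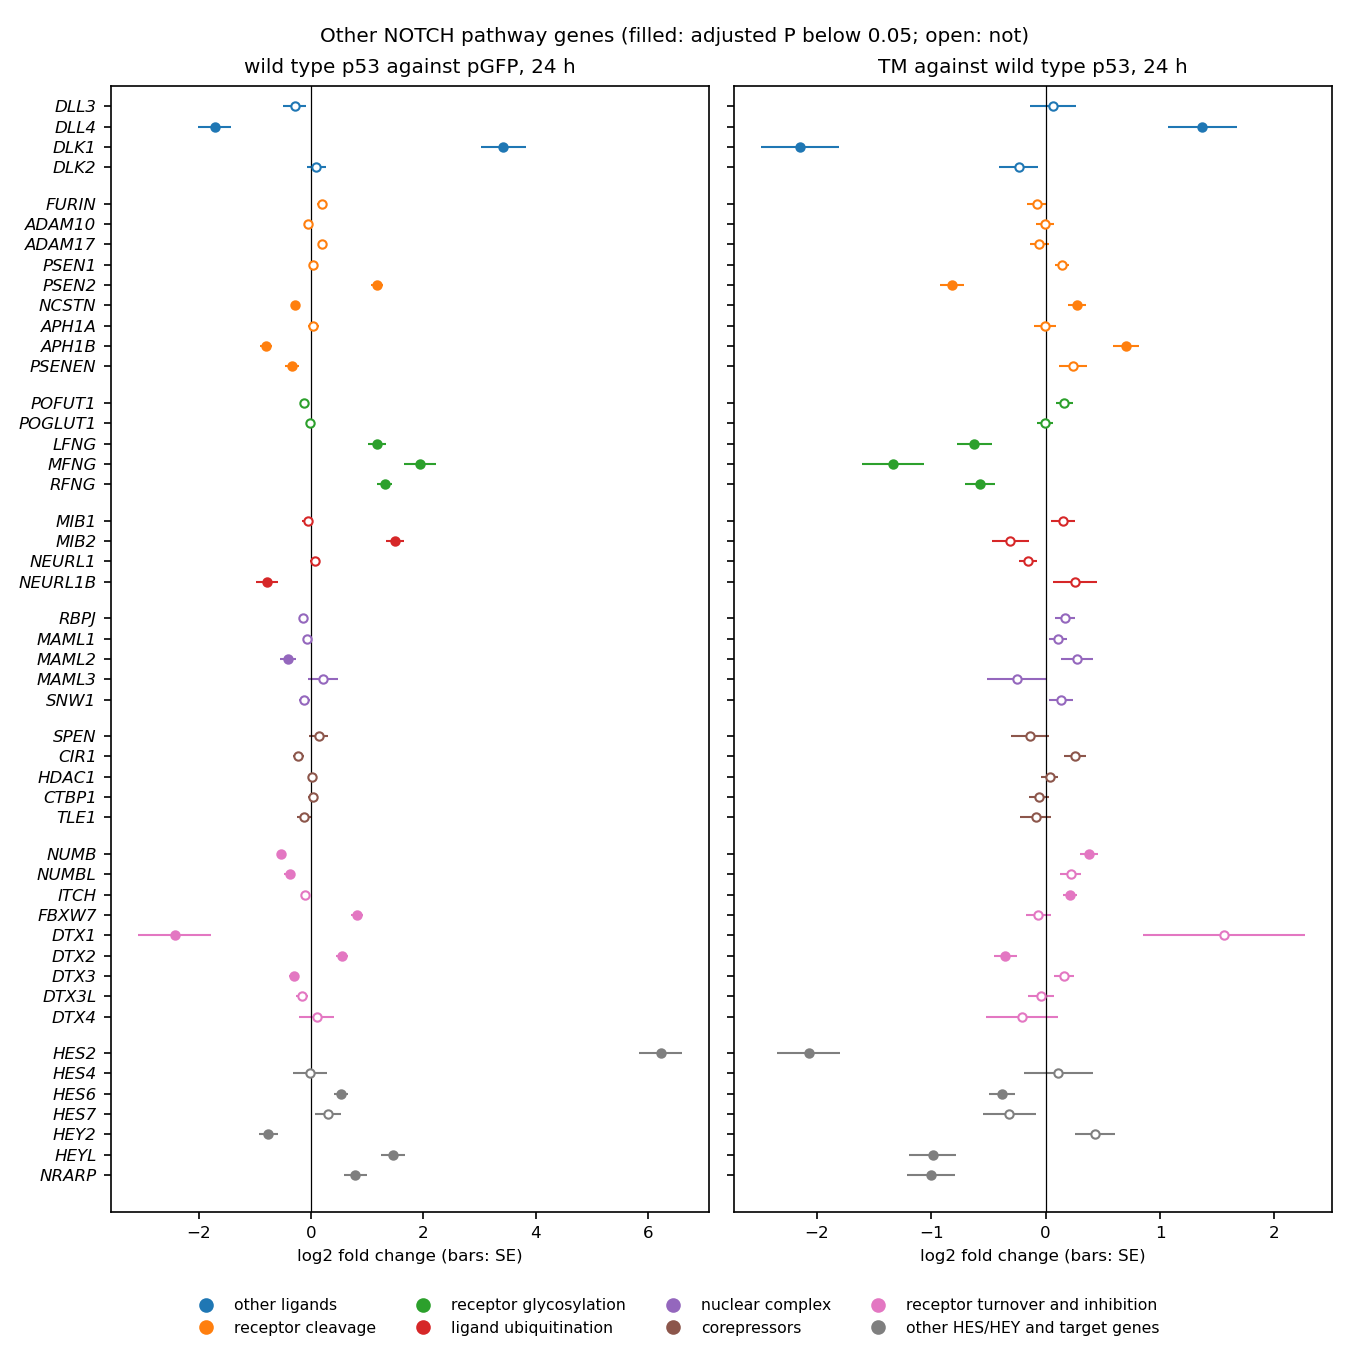
Log2 fold change (x axis) of 48 of the other pathway genes tested at 24 h (y axis, grouped and coloured by function) for wild type p53 against pGFP and for p53 TM against wild type p53; points are edgeR estimates, bars are ± 1 SE and filled points have adjusted P below 0.05. HES2 lies farthest to the right (6.22), the DTX1 estimate rests on 0 to 3 counts with wild type p53, and MFNG, RFNG and LFNG lie to the right of 0 in the first panel and to the left of 0 in the second.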

How the data were processed

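Ribosome-depleted RNA of GFP-sorted H1299 cells was sequenced. The authors' alignment used STAR 2.5.3a and the hg38 genome, and the raw read counts per gene that they deposited were made with featureCounts (Subread 1.5.2) on GENCODE annotation. Their table of normalised values was not used here, and the strand setting is not given in the sources used here. The members and gene lists were chosen with earlier results of these data known. Gene lengths, overlaps and coordinates came from GENCODE v44 (hg38), to which 38904 of 39359 gene identifiers matched and 455 did not.

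Counts of 28 libraries in 10 groups were fitted together with the edgeR 4.0.16 quasi-likelihood test (R 4.3.3, filterByExpr, TMM), and P was adjusted by Benjamini-Hochberg over the 21335 genes past the filter. This fit held no term for the replicate. CPM are counts over library total times TMM factor. SE is the log2 fold change over the square root of F. Correlations used log2(CPM + 0.5). DESeq2 1.42.0, other filters and scalings, a replicate block, the compared groups alone and each library left out were alternatives, and the script was tested on simulated data. Of the other pathway genes, those named were up to 2 called genes per functional group of largest change at 24 h and 1 at 6 h with wild type p53, and any called in p53 TM against wild type p53, beside the exceptions named in the text. Some results are not reported here.

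The 2 libraries of replicate 2 at 6 h with conflicting titles entered no group, a choice made with their CDKN1A level known, and both readings of their titles were alternatives. Same-numbered replicates deviated together at 24 h (30 of 30 pairs with r over 0.1, from 0.427 to 0.883 over 10265 genes), so that the numbers, taken from the labels, pair the samples there. At 6 h 8 of 9 pairs did (median r 0.463). These 9 pairs hold pGFP, wild type p53 and RW mutant libraries only. Of pairs of unlike number, 13 of 60 at 24 h and 2 of 18 at 6 h had r over 0.1 (median r -0.457 and -0.238). Deviations were taken from group means, so that like deviations of equal numbers push r of unlike numbers below 0. The negative medians are therefore not separate evidence of pairing. The 26 pairs of libraries within groups differed by more than sampling noise (chi-square per degree of freedom 6.08 to 47.4). Depth per library, 32302699 to 71950532 counts, leaves NOTCH4 (16 to 69) and DLL1 (31 to 147) with the fewest counts.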

Additional observations from a re-analysis of the deposited data

Results flagged for a closer look

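JAG2 differed between 6 h and 24 h in the comparison of p53 TM with wild type p53, by 1.20 on the log2 scale (SE 0.28, adjusted P = 0.0197, edgeR interaction of time and vector). The difference from wild type p53 was -2.80 at 6 h and -1.60 at 24 h, and the call was lost in 8 of 19 alternatives.

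Of the 2 libraries of 6 h that entered no group, the one whose title begins with O6-meG and has the p53 TM condition in parentheses held 13.3 CPM of NOTCH3 and 84.8 CPM of JAG2, above the highest pGFP library of 6 h (4.56 and 23.2 CPM). The one whose title begins with p53 TM and has O6-meG in parentheses held 3.08 CPM of NOTCH3 and 14.6 CPM of JAG2. CDKN1A was 250.2 CPM in the first and 50.2 CPM in the second. In the libraries of 6 h with a group it was 265.9 and 259.8 CPM with O6-meG and 66.2 and 58.4 CPM in p53 TM cells. By CDKN1A level, each of the 2 libraries was thus near the group named in the first part of its title. Their genotype field follows the parentheses, and which reading is right was not tested.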

How the results depend on the processing

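Of the log2 fold changes of the 9 genes, 36 were called and 117 not, and over 2187 alternatives 2084 stayed on their side of the threshold, 48 lost a call, 55 gained one and 0 reversed. NOTCH1, NOTCH3 and JAG2 with wild type p53 against pGFP were called in all 14 alternatives at each time (at 24 h 1.24 to 1.40, 2.85 to 3.25 and 3.23 to 3.44). Counts of the 9 genes called moved as follows. With the conflicting titles read by their parentheses, the count for O6-meG against pGFP at 6 h went from 3 to 0, for p53 TM against wild type p53 at 6 h from 3 to 1, for p53 TM against O6-meG from 2 (6 h) and 3 (24 h) to 0, and for the p53 TM and wild type p53 comparison over time from 1 to 0 (2 by the first part of the titles). With a replicate block, p53 TM against wild type p53 at 6 h had 6, O6-meG against wild type p53 4 at 6 h and 1 at 24 h in place of 0, and the changes over time 3 in place of 0 (wild type p53 against pGFP) and 4 in place of 1 (p53 TM against wild type p53). At 6 h pairing was measured only among pGFP, wild type p53 and RW mutant libraries, where 8 of 9 same-numbered pairs deviated together. It was not measured for O6-meG and p53 TM, so that block counts with these conditions at 6 h are given without weight on the pairing. Ranges of adjusted P over the alternatives include the block, and the other counts with it were within 1.5 times. DESeq2 gave 1 in place of 0 for O6-meG against wild type p53 at 6 h and 2 in place of 0 for wild type p53 against pGFP over time. Testing every gene with at least 1 count gave 1 for each of these and 2 for p53 TM against wild type p53 over time, which had 0 with DESeq2 size factors. With only the groups compared in the fit, p53 TM against O6-meG at 24 h had 1, and the changes over time 1 (wild type p53 against pGFP) and 0 (p53 TM against wild type p53). The cause of these moves was not tested. Leaving out 1 library gave 1 to 2 for O6-meG against pGFP at 6 h, 0 to 1 for O6-meG against wild type p53 at 6 h, 1 to 2 and 1 to 4 for p53 TM against O6-meG at 6 h and 24 h, and 0 to 1 and 0 to 2 for the changes over time. Of the other pathway genes, wild type p53 against pGFP at 6 h went from 7 to 11 with only those groups, and p53 TM against wild type p53 from 6 to 11 (block) or 0 (parentheses) at 6 h and from 16 to 10 (only those groups) or 26 (block) at 24 h. NOTCH4 and DLL1 had the fewest counts of the 9 genes, while the SE was largest for HES1 (0.51 and 0.44 for wild type p53 against pGFP at 6 h and 24 h).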
